A study of Homo sapiens with 6 samples.

Results

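Small RNA host genes are transcripts that carry small nucleolar RNAs (snoRNAs) or microRNAs inside them. They were taken from the gene expression table by name, as rows with a symbol of the SNHG series, with a symbol of the form MIR...HG, or with the symbol GAS5, ZFAS1, DANCR or EPB41L4A-AS1. Of the 47577 rows of the table, 97 matched, 32 of them snoRNA hosts and 65 microRNA hosts. The minimum for analysis, a normalised read count of 10 reached by 3 or more of the 6 libraries, was met by 57 of the 97, namely 29 snoRNA hosts and 28 microRNA hosts, and the same minimum kept 17568 rows of the whole table. The libraries were polyA plus RNA-seq libraries of OVCAR3, a line derived from human high-grade serous ovarian adenocarcinoma, in 3 replicates treated with DMSO, the solvent, and 3 replicates treated with 200 nM THZ531, a covalent inhibitor of CDK12 and CDK13, for 6 h. No deletion or transgene is named for either group, and all 6 samples come from this 1 line. The titles of the treated samples name THZ531, whereas a treatment note shared by all samples gives this dose for THZ1, a related compound. Nothing in the labels says that replicates are separate cultures, so the p-values below measure the spread between these samples, which may be technical.

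A snoRNA is usually cut out of the intron of a longer transcript, whose spliced exons are then exported and often destroyed by nonsense-mediated decay. Box C/D snoRNAs guide the methylation of ribosomal RNA, box H/ACA snoRNAs guide its pseudouridylation, and scaRNAs do the same for the RNAs of the spliceosome. MicroRNA hosts are the primary transcripts from which Drosha cuts a hairpin, in an intron or an exon, and Dicer then releases the mature microRNA, whose seed pairs with target messages. CDK12 and CDK13 phosphorylate the tail of RNA polymerase II during elongation, and many snoRNA hosts belong to the class of genes whose transcripts begin with a run of pyrimidines, as those of ribosomal proteins do.

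The reads assigned to genes numbered 53054048 to 70986130 in a library, with fewer in each THZ531 library than in any DMSO library. Markers of the serous epithelium were abundant, 7 of 8 with a mean normalised read count over 1000 and a summed value between 435984 and 567568 per library. PAX8 was at 10645, 11535 and 11636 in DMSO and 1184, 1161 and 1380.0 in THZ531. The other serous markers did not fall in this way. With THZ531, MUC16 (-0.46) and WT1 (-0.17, groups overlapping) were lower on the log2 scale. KRT8 (0.58), KRT18 (0.43), CDH1 (0.38), EPCAM (0.30) and KRT7 (0.082) were higher. The 8 markers of leukocytes, fibroblasts and endothelium summed to 1551 to 2888 per library, CD3E was listed at 0 in each, and COL1A1 was at 1034, 1010.5 and 942 in DMSO and 2057, 2338 and 2176 in THZ531. Of the other fibroblast markers, COL1A2 had overlapping groups and PDGFRB did not reach the minimum. The part of the COL1A1 difference in the values below was not tested.

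The mature microRNAs that lie inside the called hosts, which the host rows do not measure, are shown first. They are RefSeq sequences (GRCh38.p14), written 5′ to 3′, with the seed of bases 2 to 8 in capitals. The first 2 lie on chromosome 1 in MIR181A1HG and again on chromosome 9 in MIR181A2HG, the only pair of called hosts that share a mature sequence, and both hosts rose. They have 1 seed between them.
miR-181a-5p: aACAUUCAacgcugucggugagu
miR-181b-5p: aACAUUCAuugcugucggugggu
The hosts that rose also hold miR-762 (MIR762HG), the 3 microRNAs of the MIR23AHG cluster, miR-924 (MIR924HG), miR-600 (MIR600HG) and miR-4435 (MIR4435-2HG).
miR-762: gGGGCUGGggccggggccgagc
miR-23a-3p: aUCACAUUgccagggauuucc
miR-27a-3p: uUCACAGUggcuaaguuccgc
miR-24-3p: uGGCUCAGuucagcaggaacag
miR-924: aGAGUCUUgugaugucuugc
miR-600: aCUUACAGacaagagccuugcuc
miR-4435: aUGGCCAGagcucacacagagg
The hosts that fell hold miR-210-3p (MIR210HG), miR-9-5p (MIR9-3HG), miR-503-5p (MIR503HG) and miR-205-5p (MIR205HG).
miR-210-3p: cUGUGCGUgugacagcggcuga
miR-9-5p: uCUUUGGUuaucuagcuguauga
miR-503-5p: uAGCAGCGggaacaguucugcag
miR-205-5p: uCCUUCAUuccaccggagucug
Counting both arms, these 11 hosts hold 26 mature sequences with 24 seeds, of which 2 occur in more than 1 host, both in the miR-181 pair. In GENCODE v44 the hairpins of MIR23AHG and MIR600HG lie in exons of every host transcript that spans them, while miR-762, miR-924, miR-210-3p and the miR-181 sequences lie in introns. All 9 transcripts of MIR210HG span the microRNA. Only 2 of 8 do for MIR181A1HG, 1 of 2 for MIR181A2HG, 10 of 54 for MIR9-3HG and 3 of 10 for MIR503HG. A change of such a row need not concern a transcript that holds the microRNA. The microRNAs of MIR570HG and MIR3150BHG are not shown.

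A snoRNA or scaRNA of 6 of the 8 called snoRNA hosts is shown next, and for SNHG25 a second one, as GENCODE v44 transcripts on hg38, in DNA letters, 5′ to 3′. Capitals mark box C (TGATGA, looked for in the first 20 bases), the last box D (CTGA) or the last ACA box, on the printed strand. SNORA78, of SNHG9, lies at chr16:1965184-1965310 on the plus strand. SNORD104 lies in an intron of all 3 annotated transcripts of SNHG25, at chr17:64146083-64146152 on the plus strand. SNORA50C follows at chr17:64146339-64146471, 30 bases past the end of the SNHG25 row, and 1 of the 3 SNHG25 transcripts of GENCODE holds it in an exon.
SNORA78: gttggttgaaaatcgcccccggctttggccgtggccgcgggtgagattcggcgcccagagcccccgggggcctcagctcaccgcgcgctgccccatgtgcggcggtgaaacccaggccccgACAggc
SNORD104: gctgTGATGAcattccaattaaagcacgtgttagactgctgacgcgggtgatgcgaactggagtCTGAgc
SNORA50C: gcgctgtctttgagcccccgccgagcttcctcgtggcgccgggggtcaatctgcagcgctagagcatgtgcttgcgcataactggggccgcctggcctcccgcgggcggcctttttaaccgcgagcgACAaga
SCARNA15, of SNHG21, lies at chr15:82755945-82756071 and SNORA60, of SNHG11, at chr20:38449370-38449503. SNORD7, of SNHG30, lies at chr17:35573657-35573753 and SNORD93, of SNHG26, at chr7:22856613-22856686, all on the plus strand. The exact letters of box C are not in the first 20 bases of SNORD93. SNORA71E of SNHG11, SNORA70I of SNHG31 and the unnamed snoRNA of SNHG28 are not shown.
SCARNA15: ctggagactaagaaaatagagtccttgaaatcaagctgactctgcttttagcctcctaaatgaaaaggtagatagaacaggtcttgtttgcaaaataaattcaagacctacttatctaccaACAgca
SNORA60: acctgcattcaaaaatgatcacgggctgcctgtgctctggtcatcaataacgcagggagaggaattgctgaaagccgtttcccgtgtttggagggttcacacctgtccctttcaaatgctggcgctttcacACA
SNORD7: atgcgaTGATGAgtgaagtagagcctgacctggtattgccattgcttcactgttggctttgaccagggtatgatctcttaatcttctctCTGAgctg
SNORD93: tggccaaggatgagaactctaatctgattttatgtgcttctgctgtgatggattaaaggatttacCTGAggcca

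A run that starts with C at the annotated RefSeq transcript start and goes on with at least 4 C or T was present in 6 of the 25 snoRNA hosts with a RefSeq promoter entry (24.0%), in 1 of the 25 such microRNA hosts (4.0%) and in 5.14% of the 27305 genes with an entry. Among the 11781 such genes in a row that reached the minimum, as these hosts did, the share was 6.94%. The first 20 bases from the start are given for the 6 snoRNA hosts on GRCh38.p14, 5′ to 3′, with the run in capitals.
ZFAS1 (chr20:49278642-49278661, plus): CTTTCgcgtctgcggtgccc
SNHG5 (chr6:85678714-85678733, minus): CTTTTacgtcggccttcgcg
SNHG32 (chr6:31834916-31834935, plus): CTTTTTgcgaagtgggctcg
SNHG12 (chr1:28581854-28581873, minus): CCTTTCTCCCCgccgcattc
SNHG4 (chr5:139274101-139274120, plus): CCCTTTCCCCTCCggcctct
SNHG19 (chr16:2155339-2155358, minus): CTTTTCggggtcgagtccga
None of these 6 hosts was called in the comparison below, where their log2 fold changes ranged from -0.38 in SNHG32 to 0.57 in SNHG19. An annotated start can differ from the start used in these cells, so the absence of a run in another entry says only that the letters are not there.

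THZ531 was compared with DMSO on the log2(value + 1) scale with limma. For rows with low values this can give a smaller or a larger change than a fit on read counts. The joint SNHG28 row was at -2.35, beside -2.45 with DESeq2 on reads, and MIR3150BHG at -2.17, beside -1.83. A row was called at a fold change of at least 1.5 with an unadjusted p of at most 0.05. Where a call changed, values are also given with every library set to an equal total or set to an equal value of RPL34, a ribosomal protein gene. Of the 29 snoRNA hosts 4 rose and 4 fell, and of the 28 microRNA hosts 8 rose and 5 fell. Over all 17568 rows 39.5% were called, 15.7% up and 23.9% down. The called share was 27.6% for snoRNA hosts and 46.4% for microRNA hosts, as counts without a test. Without the 6 hosts that have a value under 10 in some library it was 7 of 28 snoRNA hosts and 9 of 23 microRNA hosts (39.1%), so the share of microRNA hosts was then close to that of all rows. All 21 called members also had a limma adjusted p (Benjamini-Hochberg over all rows) of at most 0.05. At that adjusted p and any fold, 16 snoRNA hosts were higher and 8 lower with THZ531, as were 9 and 6 microRNA hosts, beside 68.6% of all rows (34.6% higher and 34.1% lower). The 3 DMSO values and the 3 THZ531 values did not overlap in 23 snoRNA hosts and in 14 microRNA hosts, beside 71.7% of all rows.

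**Figure D1:**
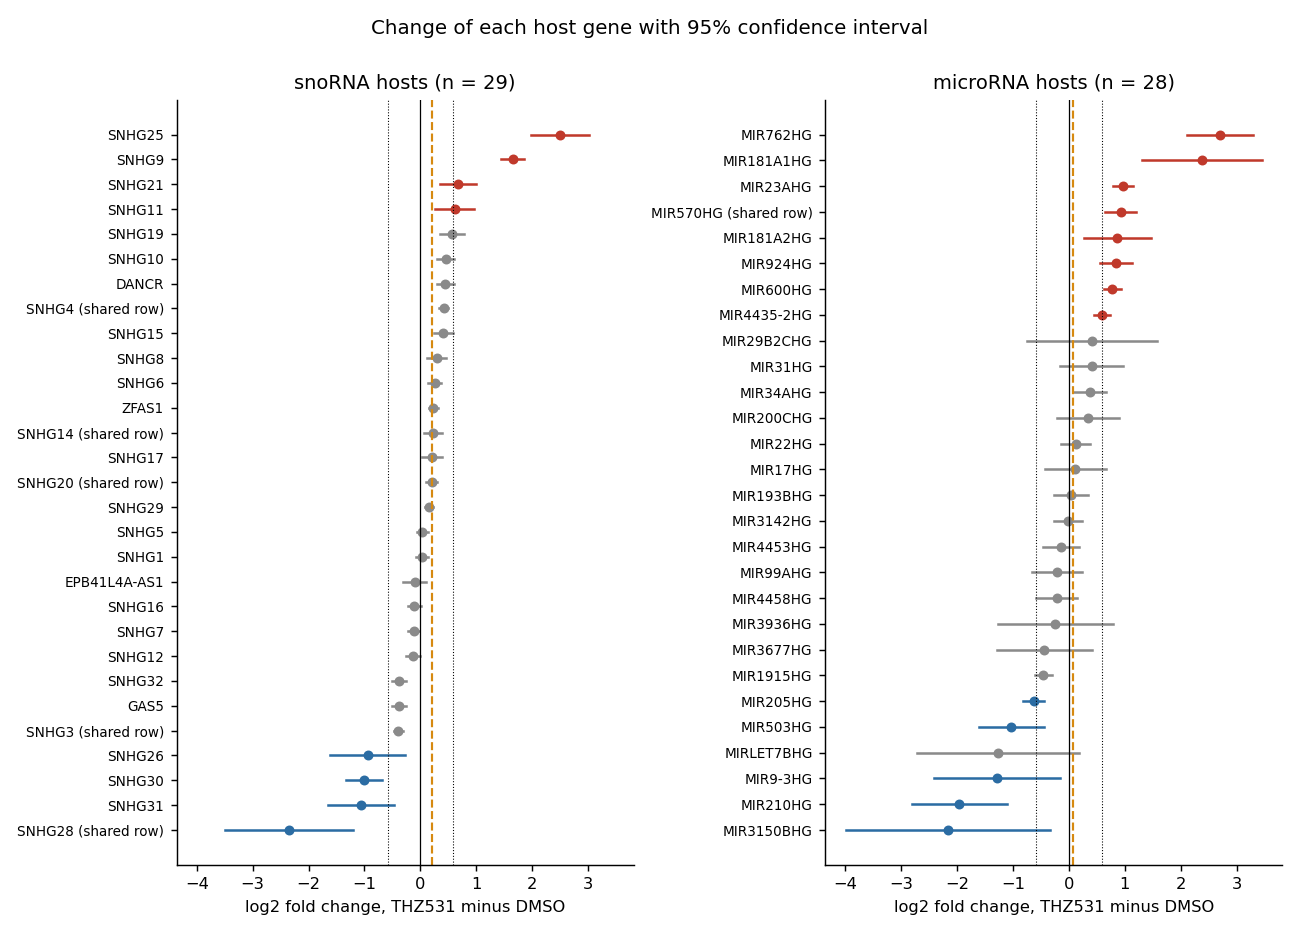
log2 fold change of THZ531 against DMSO (x axis, log2 units) for the 29 snoRNA hosts (left) and 28 microRNA hosts (right), with 95% confidence intervals from limma, 3 libraries per group. Red marks rows called up and blue rows called down, dotted lines mark a fold change of 1.5, the dashed line is the median of the class (0.20 and 0.072), and "shared row" marks rows that also count another gene. The intervals of most microRNA hosts are wider than those of the snoRNA hosts.

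Among snoRNA hosts, SNHG25, the host of SNORD104, had the largest rise. The values of SNHG25 were 34.9, 22.3 and 36.7 in DMSO and 191, 182 and 160.4 in THZ531. Every THZ531 library was far above every DMSO library. SNHG25 rose by 2.50 ± 0.25 on the log2 scale (SE, n = 3 per group), with a limma adjusted p of 1.70e-07. The SNHG25 row spans 340 bases at chr17:64145970-64146309.

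SNHG9, the host of SNORA78, was the other snoRNA host that rose more than 2-fold. SNHG9 measured 556, 461 and 405 with DMSO and 1496, 1519 and 1428 with THZ531. The 3 THZ531 libraries lay close together and all above the DMSO libraries. SNHG9 rose by 1.65 ± 0.097 on the log2 scale (SE, n = 3 per group), with a limma adjusted p of 4.00e-10. Its row spans 507 bases at chr16:1964996-1965502.

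SNHG21 (host of SCARNA15) and SNHG11 (host of SNORA60 and SNORA71E) rose less. The values of SNHG21 were 241, 165 and 207 in DMSO and 351, 289 and 332 in THZ531. SNHG21 rose by 0.67 ± 0.15 on the log2 scale (SE, n = 3 per group), with a limma adjusted p of 7.65e-04. Without DMSO replicate 2 the difference for SNHG21 was 0.53, under the fold threshold, and equal totals gave 0.43 and RPL34 scaling gave 0.18. SNHG11 measured 133, 122 and 104 with DMSO and 168, 189.8 and 189 with THZ531. SNHG11 rose by 0.61 ± 0.17 on the log2 scale (SE, n = 3 per group), with a limma adjusted p of 0.00383. For SNHG11 the change fell under the threshold when any 1 of DMSO replicate 3, THZ531 replicate 2 or THZ531 replicate 3 was left out, at 0.51 to 0.58, with a pseudocount of 10 (0.58), with the same total (0.37) and with RPL34 (0.12). SNHG19, the host of SNORD60, stayed just under the fold threshold. The values of SNHG19 were 938, 695 and 693 in DMSO and 1151, 1129.9 and 1132 in THZ531. Its groups did not overlap, and its log2 fold change was 0.57 (limma adjusted p = 8.61e-05).

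The 4 snoRNA hosts that fell were SNHG30, SNHG31, SNHG26 and the row that joins SNHG28 with VSIG8. SNHG30 is the host of SNORD7. SNHG30 was at 461, 441 and 406 in the DMSO libraries and at 193, 181 and 286 in the THZ531 libraries. All 3 THZ531 libraries were below the DMSO libraries. SNHG30 fell by 1.01 ± 0.15 in log2 units (SE, n = 3 per group, limma adjusted p = 2.04e-05). SNHG31 spans 153377 bases on chromosome 2. SNHG31 had normalised read counts of 159.6, 119 and 131 in DMSO and of 83.1, 84.1 and 37.5 in THZ531. THZ531 replicate 3 was the lowest library. SNHG31 fell by 1.07 ± 0.28 in log2 units (SE, n = 3 per group, limma adjusted p = 0.00301).

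SNHG26, the host of SNORD93, was weakly expressed. SNHG26 was at 50.02, 46.4 and 39.9 in the DMSO libraries and at 21.4, 25.01 and 22.8 in the THZ531 libraries. The groups did not overlap. SNHG26 fell by 0.95 ± 0.32 in log2 units (SE, n = 3 per group, limma adjusted p = 0.0153). The joint SNHG28 row had normalised read counts of 25.4, 25.98 and 50.3 in DMSO and of 2.52, 9.09 and 6.83 in THZ531. These values rest on 28 to 63 reads per DMSO library and 2 to 8 reads per THZ531 library. The joint SNHG28 row fell by 2.35 ± 0.54 in log2 units (SE, n = 3 per group, limma adjusted p = 0.00106). That row cannot be assigned to SNHG28 rather than VSIG8, and because its THZ531 values were all under 10 it passed the minimum through the DMSO libraries.

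The 4 hosts chosen by their own names were not called with the deposited scaling, but GAS5 was called down with the same total (-0.63) and with RPL34 as the reference (-0.88), and EPB41L4A-AS1 with RPL34 (-0.59). In these bulk libraries fewer cells and less RNA per cell cannot be told apart. GAS5, a host of several box C/D snoRNAs whose spliced RNA is a known target of nonsense-mediated decay, was lower with THZ531. GAS5 was at 2176, 2178 and 2218 in the DMSO libraries and at 1826, 1631 and 1584 in the THZ531 libraries. The groups did not overlap. This is a difference of -0.39 ± 0.059 on the log2 scale (SE, n = 3 per group), at a limma adjusted p of 2.60e-05. ZFAS1, the host of SNORD12, SNORD12B and SNORD12C, was higher. ZFAS1 had normalised read counts of 5224, 5395 and 5339 in DMSO and of 6309, 6308 and 6115 in THZ531. The log2 fold change was 0.23 ± 0.039 (SE, n = 3 per group, limma adjusted p = 5.97e-05). DANCR, the host of SNORA26, was higher as well. DANCR was at 1746, 1571 and 1451 in the DMSO libraries and at 2266, 2209.7 and 2024 in the THZ531 libraries. For DANCR the log2 fold change was 0.45 ± 0.069 (SE, n = 3 per group) and the limma adjusted p 2.41e-05.

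EPB41L4A-AS1, the host of SNORA13, had overlapping groups. EPB41L4A-AS1 had normalised read counts of 495, 446 and 488 in DMSO and of 477, 402 and 454 in THZ531. This is a difference of -0.10 ± 0.099 on the log2 scale (SE, n = 3 per group), at a limma adjusted p of 0.376. The 95% interval of its difference ran from -0.31 to 0.11 on the log2 scale with the deposited scaling, while with RPL34 the difference itself was -0.59.

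The other snoRNA hosts with a mean value of at least 1000 were all within 0.5 of 0 on the log2 scale. SNHG29, the host of SNORD49A, SNORD49B and SNORD65, was slightly higher. SNHG29 was at 17167, 17945 and 17692 in the DMSO libraries and at 19737, 19436 and 19658 in the THZ531 libraries. The log2 fold change was 0.16 ± 0.033 (SE, n = 3 per group, limma adjusted p = 5.25e-04). SNHG5, the host of SNORD50B, did not differ beyond its spread. SNHG5 had normalised read counts of 3539, 3674 and 3374 in DMSO and of 3645, 3618 and 3559.8 in THZ531. For SNHG5 the log2 fold change was 0.033 ± 0.046 (SE, n = 3 per group) and the limma adjusted p 0.541. SNHG1, a host of several box C/D snoRNAs, also had overlapping groups. SNHG1 was at 1921, 1811 and 1798 in the DMSO libraries and at 1874, 1878 and 1882 in the THZ531 libraries. This is a difference of 0.027 ± 0.053 on the log2 scale (SE, n = 3 per group), at a limma adjusted p of 0.659.

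SNHG6 (host of SNORD87) and SNHG8 (host of SNORA24) were higher with THZ531 without reaching the fold threshold. SNHG6 had normalised read counts of 1999.8, 2089 and 1958 in DMSO and of 2572, 2313 and 2354 in THZ531. The values of SNHG8 were 1128, 1105 and 1067 in DMSO and 1354, 1516 and 1190.0 in THZ531. Their log2 fold changes were 0.26 and 0.29, and neither had overlapping groups. SNHG32, which hosts SNORD48 and SNORD52, was lower. SNHG32 was at 1983, 2022 and 2025 in the DMSO libraries and at 1443, 1564 and 1618 in the THZ531 libraries. For SNHG32 the log2 fold change was -0.38 ± 0.057 (SE, n = 3 per group) and the limma adjusted p 1.80e-05. SNHG12, which hosts SNORA16A, SNORA44, SNORA61 and SNORD99, was slightly lower. SNHG12 had normalised read counts of 1662, 1538 and 1586 in DMSO and of 1433, 1488 and 1445 in THZ531. This is a difference of -0.13 ± 0.057 on the log2 scale (SE, n = 3 per group), at a limma adjusted p of 0.0505. SNHG7 (SNORA17A and SNORA17B) and SNHG16 (SNORD1A, SNORD1B and SNORD1C) were at small negative values as well. SNHG7 was at 3345, 3584 and 3314 in the DMSO libraries and at 3155, 3125 and 3159 in the THZ531 libraries. SNHG16 measured 2654, 2404 and 2252 with DMSO and 2249, 2261 and 2269 with THZ531. Their log2 fold changes were -0.12 and -0.11. With RPL34 as the reference SNHG12, SNHG7 and SNHG16 were called down, at -0.62, -0.61 and -0.60.

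In 4 further rows with a mean of at least 1000 the host is joined with a protein-coding gene, and the value cannot be assigned to the host. The row of SNHG3 (host of SNORA73A and SNORA73B) and RCC1 was lower. The joint SNHG3 row had normalised read counts of 6882, 6896 and 6879 in DMSO and of 5262, 5077 and 5380.1 in THZ531. For the joint SNHG3 row the log2 fold change was -0.39 ± 0.039 (SE, n = 3 per group) and the limma adjusted p 1.83e-07. The row of SNHG4 (host of SNORA74A) and MATR3 was higher. The joint SNHG4 row was at 11177, 11490.2 and 11887 with DMSO and at 15745, 15255 and 15161 with THZ531. This is a difference of 0.42 ± 0.036 on the log2 scale (SE, n = 3 per group), at a limma adjusted p of 3.70e-08. The row of SNHG20 (host of SCARNA16) and SEC14L1 and the row of SNHG14 with IPW, SNRPN and SNURF were slightly higher. The joint SNHG20 row had normalised read counts of 2926, 2782 and 2793 in DMSO and of 3204, 3251 and 3305 in THZ531. The joint SNHG14 row was at 1000.3, 1113 and 988 in DMSO and at 1259, 1100.3 and 1269.6 in THZ531. Their log2 fold changes were 0.20 and 0.23, and only the first had groups that did not overlap. The remaining 3 snoRNA hosts, SNHG10, SNHG15 and SNHG17, were at log2 fold changes of 0.45, 0.41 and 0.21 and were not called.

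Among microRNA hosts, MIR762HG rose most. MIR762HG was at 17.5, 27.8 and 23.9 in the DMSO libraries and at 165, 116 and 185 in the THZ531 libraries. The lowest THZ531 library was above the highest DMSO library. MIR762HG rose by 2.697 ± 0.28 in log2 units (SE, n = 3 per group, limma adjusted p = 2.82e-07). MIR181A1HG, at chr1:198808003-198937429, rose from values near the minimum. MIR181A1HG had normalised read counts of 11.9, 9.28 and 3.19 in DMSO and of 51.6, 27.3 and 51.2 in THZ531. These values rest on 4 to 15 reads per DMSO library and 24 to 45 reads per THZ531 library. MIR181A1HG rose by 2.38 ± 0.50 in log2 units (SE, n = 3 per group, limma adjusted p = 5.58e-04).

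MIR181A2HG, the second host of miR-181a and miR-181b, at chr9:124658412-124698628, rose from a higher level. MIR181A2HG was at 56.4, 36.2 and 58.2 in the DMSO libraries and at 117, 96.6 and 64.8 in the THZ531 libraries. The highest DMSO library was only slightly below THZ531 replicate 3. MIR181A2HG rose by 0.86 ± 0.28 in log2 units (SE, n = 3 per group, limma adjusted p = 0.0125). MIR23AHG, the primary transcript of the miR-23a, miR-27a and miR-24-2 cluster, rose in all 3 THZ531 libraries. MIR23AHG had normalised read counts of 985, 1249 and 1214 in DMSO and of 2156, 2444 and 2088 in THZ531. MIR23AHG rose by 0.96 ± 0.084 in log2 units (SE, n = 3 per group, limma adjusted p = 4.51e-08). With RPL34 as the reference both calls were lost, at 0.38 for MIR181A2HG and 0.47 for MIR23AHG.

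MIR600HG and MIR924HG rose with groups well apart. MIR600HG was at 695, 680.2 and 646 in the DMSO libraries and at 1126, 1153 and 1183 in the THZ531 libraries. MIR600HG rose by 0.78 ± 0.069 in log2 units (SE, n = 3 per group, limma adjusted p = 5.50e-08). MIR924HG had normalised read counts of 141, 169.8 and 173 in DMSO and of 296, 293 and 279 in THZ531. MIR924HG rose by 0.84 ± 0.14 in log2 units (SE, n = 3 per group, limma adjusted p = 4.43e-05). With the same total the difference for MIR600HG was 0.53, under the threshold, and with RPL34 MIR600HG and MIR924HG were at 0.28 and 0.35 and not called. The MIR924HG row spans 593395 bases on chromosome 18. The row that joins MIR570HG with the pseudogene SDHAP2 also rose. The joint MIR570HG row was at 209, 257 and 212 with DMSO and at 427, 377 and 491 with THZ531. The joint MIR570HG row rose by 0.93 ± 0.13 in log2 units (SE, n = 3 per group, limma adjusted p = 9.45e-06). With RPL34 it was at 0.44 and not called. Its reads cannot be assigned to MIR570HG, and SDHAP2 has near-identical copies elsewhere.

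MIR4435-2HG was at the edge of the fold threshold. MIR4435-2HG had normalised read counts of 968, 1040.2 and 1139 in DMSO and of 1584, 1616 and 1514 in THZ531. MIR4435-2HG rose by 0.59 ± 0.068 in log2 units (SE, n = 3 per group, limma adjusted p = 1.28e-06). It lost the call, at 0.56 to 0.58, with a pseudocount of 10, with upper-quartile scaling, with edgeR and with DESeq2, at 0.34 with the same total for every library, at 0.093 with RPL34 as the reference, and at 0.53 to 0.58 when any 1 of DMSO replicates 1 and 2 and THZ531 replicates 1 and 2 was left out.

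The microRNA hosts that fell were mostly weakly expressed. MIR205HG, the host of the epithelial miR-205, was the exception. MIR205HG was at 799, 910.3 and 992 in the DMSO libraries and at 576, 610.4 and 548 in the THZ531 libraries. MIR205HG fell by 0.63 ± 0.089 in log2 units (SE, n = 3 per group, limma adjusted p = 9.43e-06). Without DMSO replicate 3 its difference was -0.56, under the threshold. MIR503HG came next. MIR503HG had normalised read counts of 94.5, 77.02 and 81.4 in DMSO and of 47.9, 48.9 and 28.4 in THZ531. MIR503HG fell by 1.03 ± 0.27 in log2 units (SE, n = 3 per group, limma adjusted p = 0.00335).

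MIR210HG, the host of the hypoxia-responsive miR-210, fell to values near the minimum. MIR210HG was at 54.8, 46.4 and 30.3 in the DMSO libraries and at 11.3, 9.09 and 10.2 in the THZ531 libraries. MIR210HG fell by 1.96 ± 0.40 in log2 units (SE, n = 3 per group, limma adjusted p = 4.12e-04). MIR9-3HG, 1 of the hosts of miR-9, rests on 4 to 28 reads per library. MIR9-3HG had normalised read counts of 15.1, 25.98 and 16.8 in DMSO and of 11.3, 4.55 and 6.83 in THZ531. MIR9-3HG fell by 1.28 ± 0.53 in log2 units (SE, n = 3 per group, limma adjusted p = 0.0421). Its call was lost without DMSO replicate 2 (-1.06) or without THZ531 replicate 2 (-1.01). MIR3150BHG is the called member with overlapping groups. MIR3150BHG was at 7.15, 24.1 and 18.4 in the DMSO libraries and at 2.52, 0 and 11.4 in the THZ531 libraries. MIR3150BHG fell by 2.17 ± 0.86 in log2 units (SE, n = 3 per group, limma adjusted p = 0.0341). It was listed at 0 in 1 THZ531 library, and its call was lost without a variance trend and when DMSO replicate 2, DMSO replicate 3 or THZ531 replicate 2 was left out, at -2.02 to -1.26.

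**Figure D2:**
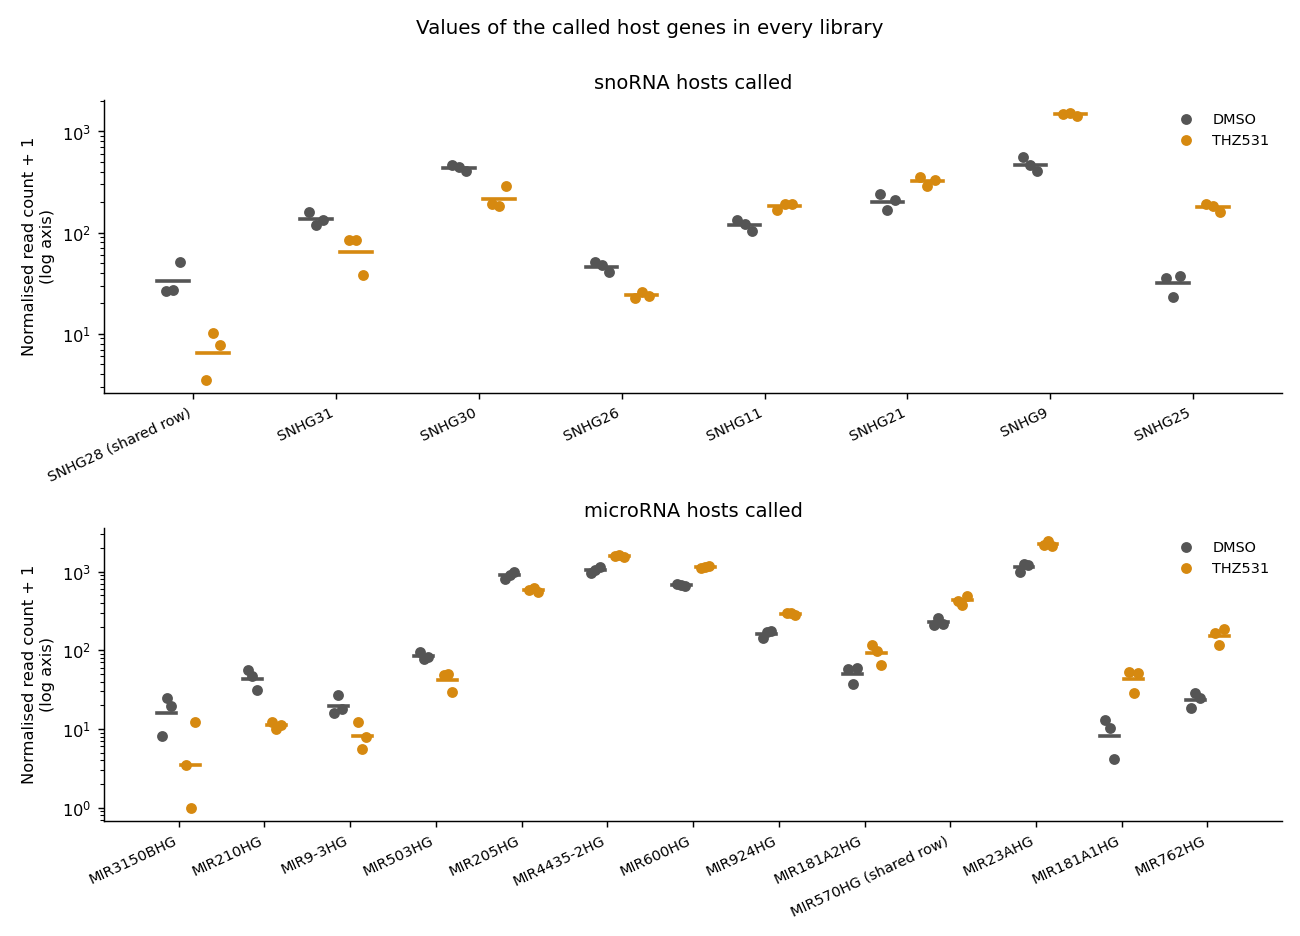
Normalised read count + 1 (log axis) of the 21 called hosts in each library, DMSO in grey and THZ531 in orange. Points are the 3 replicates, bars their mean on the log scale. The groups are apart in 20 of the 21 hosts, MIR3150BHG being the other, beside 71.7% of all tested rows. The hosts shown were chosen by their call, which favours groups that are apart.

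Of the 15 microRNA hosts not called, MIR1915HG was the only one with a mean of at least 1000, and its groups did not overlap. MIR1915HG had normalised read counts of 1240.1, 1487 and 1406 in DMSO and of 1020.2, 972 and 1010.3 in THZ531. This is a difference of -0.46 ± 0.072 on the log2 scale (SE, n = 3 per group), at a limma adjusted p of 3.29e-05. MIR34AHG, the host of the p53-responsive miR-34a, was higher by 0.37 on the log2 scale (limma adjusted p = 0.021). The hosts of the miR-17 cluster (MIR17HG, 0.11), of miR-22 (MIR22HG, 0.12), of miR-193b and miR-365a (MIR193BHG, 0.034) and of miR-146a (MIR3142HG, -0.013) had log2 fold changes near 0, the interval for MIR17HG running from -0.44 to 0.65. Those of the epithelial miR-200c and miR-141 (MIR200CHG, 0.35), of miR-31 (MIR31HG, 0.41) and of miR-29b and miR-29c (MIR29B2CHG, 0.41) had wide intervals, the last from -0.75 to 1.57. MIRLET7BHG, a host of let-7 microRNAs, was at 18.3, 23.2 and 15.96 in DMSO and 1.26, 14.8 and 14.8 in THZ531, with a log2 fold change of -1.27 that did not pass the test. MIR4453HG, MIR99AHG, MIR4458HG, MIR3936HG and MIR3677HG lay between -0.44 and -0.14 and did not pass it either.

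The 40 members under the minimum were 3 snoRNA hosts (SNHG18, SNHG22 and SNHG27) and 37 microRNA hosts, and 18 of them were at 0 in every library, where a count of 0 allows up to 3 reads, or 2.38 to 3.78 normalised reads depending on the library, for counting error only. The member just inside the minimum was MIR3150BHG, whose third-highest value was 11.4, and the member just outside it was MIR100HG, at 9.28. Of the 57 members, 6 had a value under 10 in at least 1 library, and 5 of these 6 were called, so they were chosen in part by the group in which they are high.

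The classes differed in level and in precision. Per kilobase of GENCODE exon, the median DMSO level was 275 normalised reads for the 24 snoRNA hosts in rows of their own and 28.1 for the 27 such microRNA hosts. The exon bases can exceed the deposited row, which makes the level of such a host too low. SNHG5 has 12604 exon bases for a row of 1725 bases, and MIR23AHG has 19049 for a row of 8403. The median standard error of the log2 fold change was 0.073 for snoRNA hosts and 0.234 for microRNA hosts. The median log2 fold change was 0.20 for snoRNA hosts, 0.072 for microRNA hosts and -0.0071 over all rows. The order of the classes turned with a minimum of 50 in place of 10, where the snoRNA median minus the microRNA median was -0.030. Relative to the DMSO mean, the median log2 ratio of the snoRNA hosts was 0.17, 0.14 and 0.16 in THZ531 replicates 1, 2 and 3 and between -0.036 and 0.058 in the DMSO libraries, so the groups did not overlap. For the microRNA hosts it was 0.15, 0.19 and 0.050 against -0.11 to 0.11, and the groups did. With a mean of at least 100, 4 of 27 snoRNA hosts were called up and 2 down, 5 of 15 microRNA hosts up and 1 down, and 14.4% and 21.6% of all such rows. These are counts and medians over members, which are not replicates, and no test of the class difference was made.

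The table also has rows for single small RNAs. Inside the 57 members lie 93 snoRNA rows of 33 to 205 bases and 26 microRNA rows of 53 to 110 bases. In polyA plus libraries such rows hold few reads, and whether these come from the small RNA or from unspliced host RNA cannot be told apart. No microRNA row reached the minimum (highest value 16.7), so the mature microRNAs printed above were not measured. Of the 93 snoRNA rows 40 were at 0 in every library and 25 were tested. Of these 25, 2 were called up and 4 down, beside 15.7% and 23.9% of all rows, with a median log2 fold change of -0.059.

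The snoRNA rows at SNHG25 moved unequally. The SNORA50C row was at 35.7, 69.6 and 39.1 in DMSO and 275, 288 and 304 in THZ531. It rose by 2.62 ± 0.23 on the log2 scale (SE, n = 3 per group, limma adjusted p = 4.67e-08), much as the SNHG25 row did. The SNORD104 row, which lies inside the SNHG25 row, was at 82.6, 128 and 116 in DMSO and 146, 126 and 121 in THZ531, a log2 difference of 0.28 that did not pass the test.

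In GAS5, the SNORD44 row fell from 61.1, 80.7 and 97.3 in DMSO to 36.5, 30.7 and 23.9 in THZ531, by 1.36 on the log2 scale. The SNORD79 row fell by 1.13, while the SNORD74 row, at 77.01, 65.9 and 82.2 and 102, 69.3 and 80.8, had a log2 fold change of 0.15 and overlapping groups. SNORD52 in SNHG32 fell by 1.32 and SNORD99 in SNHG12 by 0.89, the latter with a limma adjusted p of 0.0684. SNORA71D in SNHG17 rose by 1.93 and SNORD12B in ZFAS1 by 1.23, from values of at most 15.9 in DMSO. Both rows had DMSO values under 10 and reached the minimum through the THZ531 libraries, so a rise was built into their selection. SNORA50C, SNORD44, SNORD79 and SNORD52 kept their calls under each of the 6 scalings, whereas SNORD12B lost its call with DESeq2, the same total and RPL34, and SNORD99 with DESeq2. For the rows that fell this is a weak check, since no scaling moved the median of all rows up by more than 0.0020 on the log2 scale. SNORA71D is 1 of several related SNORA71 copies in SNHG17, so the split of reads among them is uncertain.

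**Figure D3:**
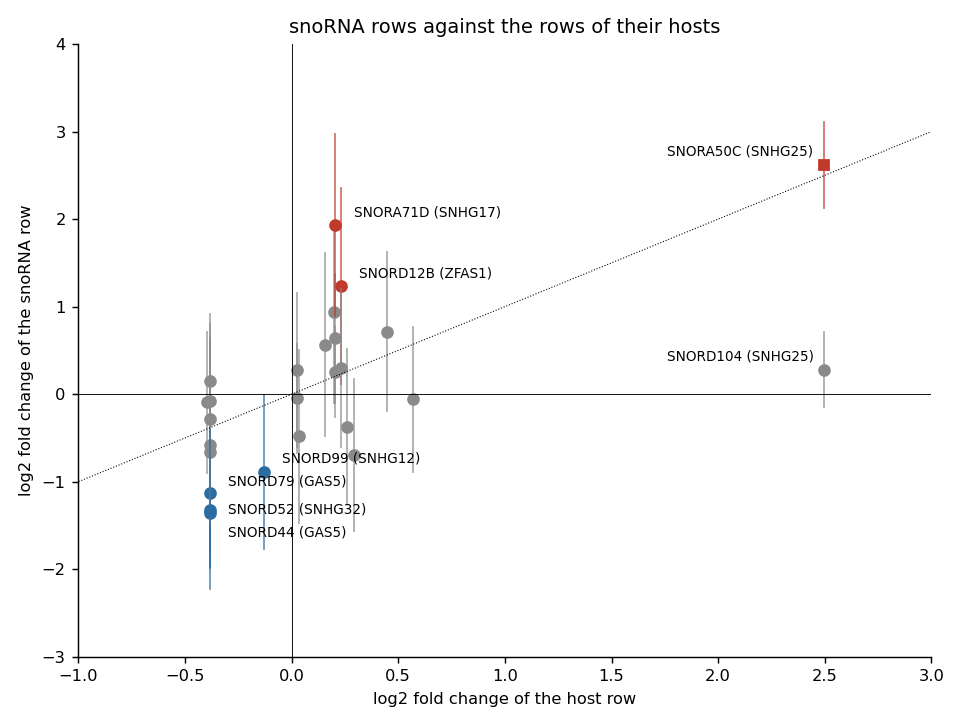
log2 fold change of the 26 tested snoRNA rows (y axis) against that of the host row (x axis), with 95% confidence intervals, the dotted line marking equal change. Circles lie inside the host row, the square (SNORA50C) lies 30 bases past it, red and blue mark rows called up and down. SNORA50C lies at the level of SNHG25 and SNORD104 lies near 0.

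Many hosts overlap or abut other genes. The setting of the authors' counting for strand is not given in the sources used here, so reads of overlapping genes on opposite strands may not be told apart. In 10 pairs the start of another tested gene lay within 1 kb of the host start on the other strand. None of the partners was called up and 2 were called down, beside 15.7% and 23.9% of all rows. Of the 10 pairs, 6 had log2 fold changes of the same sign. The partners ZBTB37, ZNFX1 and SLC22A5 also overlap their hosts and are counted again among the overlapping pairs below. RPS2, a ribosomal protein gene, starts 161 bases from SNHG9 and had a log2 fold change of 0.37 beside 1.65 for SNHG9. GLRX5 starts 161 bases from SNHG10, with 0.52 beside 0.45. WDR81 starts 251 bases from MIR22HG and fell by 0.82, beside 0.12 for MIR22HG.

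Of 16 pairs that overlap on opposite strands, none of the partners was called up and 5 were called down, beside 15.7% and 23.9% of all rows. BCL7C, which overlaps MIR762HG, was at 0.43 on the log2 scale while MIR762HG rose by 2.697. The MAPK3 row was at -0.020. It is counted as overlapping only because its listed coordinates, chr16:30114105-31042165, take in the whole MIR762HG row. NR6A1, which overlaps MIR181A2HG, fell by 1.28 while the host rose. ST6GALNAC2 fell by 1.85 and LRRC75A by 1.35, while their partners SNHG16 and SNHG29 were at -0.11 and 0.16.

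By length, the 2 snoRNA hosts that rose most were also the shortest, SNHG25 with 340 bases and SNHG9 with 507. Of the 7 snoRNA hosts under 2 kb, 2 were called up and none down, with a median log2 fold change of 0.45, and the 1474 rows under 2 kb of the whole table had a median of 0.33 with 32.2% called up. The 13 snoRNA hosts of 2 to 10 kb had a median of -0.11 and the 11 microRNA hosts of that length a median of -0.44, beside 0.020 for all rows. Of the 8 microRNA hosts over 50 kb, 4 were called up and none down, with a median of 0.50 beside a median of -0.044 for all rows over 50 kb, of which 13.6% were called up and 24.5% down. These 4 were MIR924HG, MIR4435-2HG, MIR181A1HG and the joint MIR570HG row. All but MIR181A1HG lost the call with RPL34, and MIR181A1HG rests on 4 to 15 reads per DMSO library. The 53837 bases of the joint MIR570HG row need not be the length of the host. Across the 29 snoRNA hosts the log2 fold change went with the logarithm of length at a Pearson r of -0.47, and across the 28 microRNA hosts at 0.36. Both are descriptions across genes of the same 6 libraries, and genes are not independent replicates. The lengths are those of the deposited rows, and in joint rows neither the length nor the change can be assigned to the host. The joint SNHG20 row spans 130386 bases beside 13187 for SNHG20 in GENCODE, and the joint SNHG4 row 57926 beside 10798. The correlations were not computed without the joint rows.

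**Figure D4:**
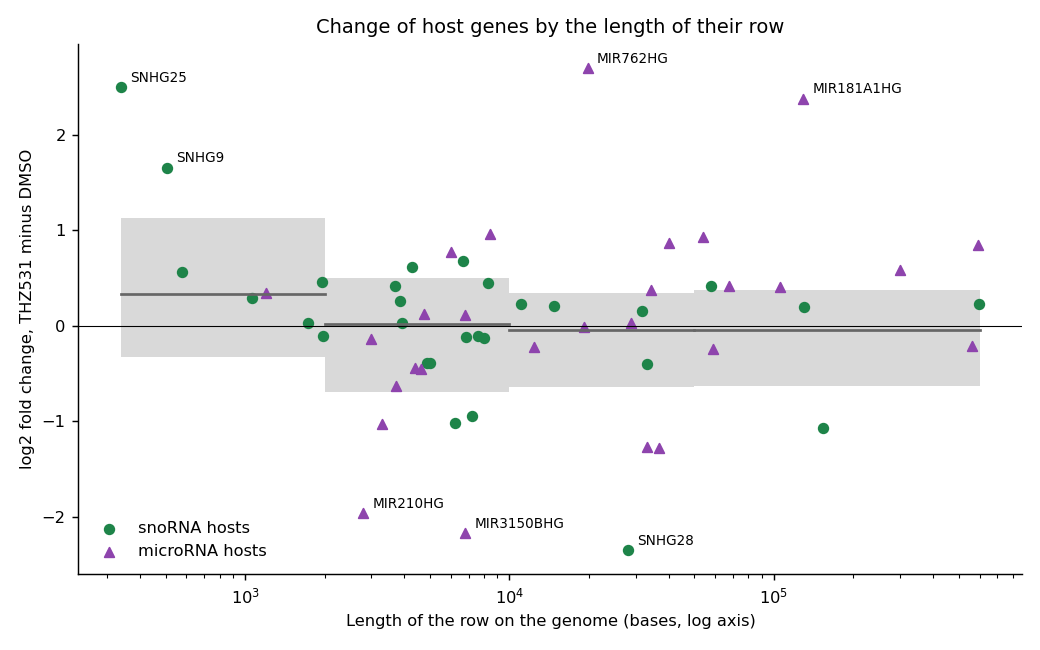
log2 fold change of THZ531 against DMSO (y axis) of each host against the length of its row on the genome (x axis, bases, log axis). Green circles are snoRNA hosts and purple triangles microRNA hosts, grey bands are the quartiles and grey lines the median of all tested rows of that length, drawn over the range of the hosts. SNHG25 and SNHG9 are at the upper left, and the microRNA hosts over 50 kb lie mostly above the grey line.

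The direction of the small changes depended on how the libraries were scaled. The deposited values sum to 55389676 to 56639224 in DMSO and to 65875609 to 66820371 in THZ531. With every library scaled to the same total, the median of all rows moved by -0.24 on the log2 scale, 2 snoRNA hosts were up and 7 down, and 6 microRNA hosts were up and 7 down (all rows, 9.38% and 32.0%). With RPL34 as the reference it moved by -0.49, 2 snoRNA hosts were up and 11 down, and 2 microRNA hosts were up and 11 down (all rows, 6.14% and 42.8%). The small rises of ZFAS1, SNHG29, SNHG20, SNHG14, SNHG1 and SNHG5 turned negative under both scalings, and those of DANCR, SNHG4, SNHG6 and SNHG8 under RPL34. Hosts not called and given without values per library reversed as well. These were SNHG17, MIR17HG, MIR22HG and MIR193BHG under both scalings. Under RPL34 alone they were SNHG10, SNHG15, MIR34AHG, MIR200CHG, MIR31HG and MIR29B2CHG. SNHG25, SNHG9, MIR762HG and MIR181A1HG remained called up, and all 9 falling members called down, under each of the 6 scalings. The 6 include the deposited scaling itself and the fits on reads with edgeR and DESeq2. Relative to the deposited scaling, the others moved the median of all rows down, or up by at most 0.0020 with DESeq2. A call down could therefore hardly be lost through the scaling, and keeping it is a weak check of the falls. The other 8 rising members lost the call under at least 1 scaling. Keeping the call does not lift the limits of weak rows. MIR181A1HG, MIR210HG, MIR9-3HG, MIR3150BHG and the joint SNHG28 row had values under 10 and were chosen in part by the group in which they are high. The DESeq2 adjusted p was 0.062 for MIR9-3HG and 0.064 for MIR3150BHG. Calls down were gained with the same total and with RPL34 by GAS5, SNHG32, the joint SNHG3 row, MIR1915HG and MIRLET7BHG, and with RPL34 alone by SNHG7, SNHG12, SNHG16, EPB41L4A-AS1, MIR99AHG, MIR3677HG, MIR4453HG and MIR4458HG.

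**Figure D5:**
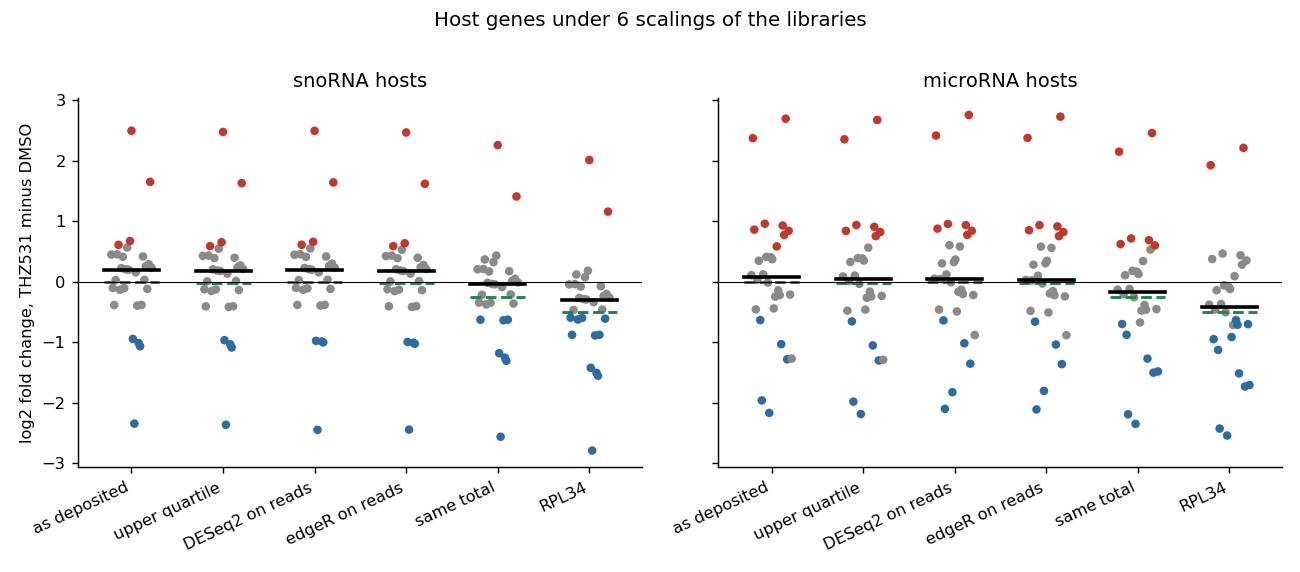
log2 fold change (y axis) of each snoRNA host (left) and microRNA host (right) under 6 scalings of the libraries (x axis). Points are genes, red called up and blue called down, black bars the median of the class and green dashed bars the median of all rows. SNHG25 and SNHG9 stay at the top of the left panel while the bulk of both classes moves down with all rows under same-total and RPL34 scaling.

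The proteins that bind and assemble snoRNAs were measured in the same libraries. The counts below stand beside 15.7% of all rows called up and 23.9% called down. Of 8 core proteins of the snoRNA particles, 1 was called up and none down, with a median log2 fold change of 0.47. The called gene was NOP56, a core protein of box C/D particles, at 16519, 16231 and 16417 in DMSO and 27365, 27754 and 28566 in THZ531 (log2 fold change 0.77 ± 0.032 SE). FBL, the methyltransferase of these particles, was at 0.57, just under the fold threshold. Of 12 assembly factors 4 were called up and none down. They were NUFIP1 (1.02), NAF1 (0.92), NOPCHAP1 (0.84) and SHQ1 (0.67), while the helicases RUVBL1 and RUVBL2 were at -0.32 and -0.0092. These rises depended on the scaling. With the same total the NOP56 and SHQ1 calls were lost, and with RPL34 none of the 5 genes was called and the medians of both lists turned to -0.027 (core proteins) and -0.021 (assembly factors).

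Of 14 genes of microRNA processing, 3 were called up (21.4%) and 2 down (14.3%), beside 15.7% and 23.9% of all rows. TNRC6B, a scaffold of the silencing complex, rose by 1.87 and its relative TNRC6C fell by 1.53. The Argonaute AGO2 rose by 0.93 and AGO4 fell by 1.16. DGCR8, the partner of Drosha, rose by 0.78, with DROSHA itself at -0.048 and DICER1 at 0.57. Of 14 genes of nonsense-mediated decay none was called up and 4 (28.6%) were called down, a share near the 23.9% of all rows, namely SMG9 (by 1.92), UPF2 (by 1.15), SMG6 (by 1.10) and UPF3B (by 1.02), while UPF1, the central helicase, was at 0.30. The 6 falls of these lists and the rise of TNRC6B were called under each of the 6 scalings, whereas AGO2 lost its call with RPL34 and DGCR8 with RPL34 and with the same total. For the 6 falls this is a weak check, since no scaling moved the median of all rows up by more than 0.0020 on the log2 scale.

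Protein-coding genes that hold a small RNA on the same strand form the larger group of hosts. Of 229 tested protein-coding snoRNA hosts 32 were called up (13.97%) and 25 down (10.9%), with a median log2 fold change of 0.26, beside 15.7% and 23.9% of all rows. Of 771 protein-coding microRNA hosts 91 were called up (11.8%) and 165 down (21.4%), with a median of 0.0097. The median was higher for snoRNA hosts than for microRNA hosts, without a test. With the same total the medians were 0.017 and -0.23, and with RPL34 both were negative, at -0.23 and -0.48. RAB30, CSKMT and TIMM23B rose most among the former, by 1.81, 1.64 and 1.51, and at the other end were DNAJC16, the row of PPAN with P2RY11, and ZMYM4, with log2 fold changes of -1.74, -1.69 and -1.57. Among protein-coding microRNA hosts, CHD2, PDE4D and LIFR rose most, by 2.20, 1.58 and 1.57, and at the other end were ARHGAP24, CFAP44 and SYT1, with log2 fold changes of -4.41, -3.23 and -2.997. These 12 genes were taken from hosts whose mean reached 100 and whose groups did not overlap.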

How the data were processed

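PolyA plus RNA of OVCAR3 cells was sequenced from 3 DMSO and 3 THZ531 samples, with groups taken from the sample titles. The authors mapped paired-end reads of stranded libraries to hg38 with STAR (2.7.5a in the submitters' processing notes, another version in the study's methods), counted FAST DB genes with featureCounts and deposited 1 table of DESeq2-normalised signal per gene, not corrected for length. Each deposited value was a whole multiple of 1 step per library for at least 99.99% of values (tolerance 0.001), so reads were recovered for alternative fits with edgeR 4.0.16 and DESeq2 1.42.0.

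The main test was limma 3.58.1 (R 4.3.3) with a variance trend on log2(value + 1), two-sided, over the 17568 rows that reached 10 in 3 or more libraries, with Benjamini-Hochberg adjustment over all of them. It was tested on simulated data. Other scalings set equal totals, equal upper quartiles or equal RPL34. Values per library were given for called hosts, for the 4 hosts chosen by name and for hosts with a mean of at least 1000. The lists' called genes were named up to 6 per list, and from the protein-coding hosts the 3 largest changes in each direction. List genes named without a call, snoRNA rows and neighbours were chosen after their values were seen. The members and lists were chosen with earlier results of these data known. The DMSO and THZ531 samples share replicate numbers, but same-numbered samples did not deviate together (correlations from -0.039 to 0.019), so no block was used. Precision is limited by 3 libraries per group and, for weak hosts, by the reads stated beside them.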

Additional observations from a re-analysis of the deposited data

How the results depend on the processing

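Alternative settings gave 657 values for the 39 hosts that were called, chosen by name or had a mean of at least 1000. Of these values, 597 kept their direction and their side of the threshold, 32 lost the call, 12 gained one and 16 reversed. Calls gained and reversals in the other tested hosts are not in these counts. With libraries at the same total, 2 snoRNA hosts were called up and 7 down, and the class medians were -0.043 for snoRNA hosts and -0.17 for microRNA hosts. With RPL34 as reference, 2 snoRNA hosts were up and 11 down and 2 microRNA hosts up and 11 down, with medians of -0.29 and -0.42. Both scalings move all rows by construction. Among the 39 hosts, single hosts reversed with the same total at -0.22 (SNHG1), -0.21 (SNHG5), -0.087 (SNHG29), -0.043 (SNHG20), -0.017 (SNHG14) and -0.012 (ZFAS1), and with RPL34 at -0.47 (SNHG1), -0.46 (SNHG5), -0.34 (SNHG29), -0.29 (SNHG20), -0.27 (SNHG14), -0.26 (ZFAS1), -0.23 (SNHG6), -0.20 (SNHG8), -0.075 (SNHG4) and -0.044 (DANCR). With a minimum of 50, which tests fewer hosts, 2 snoRNA and 2 microRNA hosts were called down, the microRNA median was 0.24, and the snoRNA median minus the microRNA median turned from 0.13 to -0.030, so which class lies higher depends on this minimum. The snoRNA median was 0.18 with upper-quartile scaling and 0.18 with edgeR. At a fold change of 2, 2 snoRNA and 2 microRNA hosts were up. No share of all rows is given at this fold change or at the minimum of 50. Whether these counts differ from the whole table was therefore not tested. Rows with a single symbol gave a snoRNA median of 0.16 and 5 microRNA hosts up. Rows overlapping no other named row gave 2 snoRNA hosts down, a snoRNA median of 0.35 and a difference of 0.34. Without the hosts that have a value under 10, an alternative chosen after seeing the data, 2 microRNA hosts were down. Leaving out 1 library gave a snoRNA median of 0.16 to 0.20 and 3 to 6 microRNA hosts down, the count being 3 without DMSO replicate 2 and 3 without DMSO replicate 3. A replicate block gave 6918 calls over all rows beside 6948 without it, and 21 called hosts both ways, so the pairing changed no count of hosts. Same-numbered samples correlated at 0.0017, 0.019 and -0.039.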
